A study of Mus musculus with 16 samples.

Results

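The histone lysine methyltransferases and demethylases are the enzymes that write and erase methyl groups on histone lysines. They were followed in the hypothalamus of obese mice given celastrol, a food ration, both or neither. Members were the genes of the count table with names of the Kmt, Kdm, Setd or Nsd series followed by a number, together with Ezh1, Ezh2, Ehmt1, Ehmt2, Suv39h1, Suv39h2, Setdb1, Dot1l and Ash1l. A total of at least 160 counts over all libraries was required. The rule found 42 of 24047 genes. No matching gene lay below the minimum, and Kdm4d was nearest to it with 461 counts. The rule goes by name, and no row was named Nsd2, Nsd3, Kmt5b or Kmt5c. Enzymes listed under other names were not looked at, so the classes below may be incomplete. The family was singled out because Kmt2d had been seen to be higher with celastrol in these libraries. Values of the members for celastrol are therefore a description, with no test, and they support nothing. The tests concern the food ration, which the rule did not use, and the interaction of ration and celastrol. The ration comparisons share libraries with those for celastrol. The interaction is made from the celastrol differences with and without the ration, so it is not free of the choice of the family.

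Methyl groups on histone lysines act according to the residue. Methylation of lysine 4 of histone H3 (H3K4) marks promoters and enhancers of genes in use, that of H3K36 and H3K79 marks transcribed gene bodies, and that of H3K9 and H3K27 marks silenced chromatin. SET-domain enzymes and Dot1l add the groups. The FAD-dependent enzymes Kdm1a and Kdm1b and the JmjC-domain enzymes, which need oxygen, iron and 2-oxoglutarate, remove them. In neurons these enzymes take part in the expression of activity-dependent genes, and mutations in many of them cause human neurodevelopmental disorders.

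The libraries were bulk RNA of the hypothalamus of C57BL/6J mice made obese with a high-fat diet, 4 libraries in each of 4 groups. All mice had DMSO injections for 1 week and were then treated for 4 days. The Veh group was injected with DMSO and the CS group with celastrol (100 µg per kg body weight daily, into the peritoneum), both with food freely available. The PF group got a daily food allowance of 0.5 g of the same diet and an injection whose content its label does not name. The allowance was split into 0.34 g for the dark and 0.16 g for the light phase. The PF+CS group had celastrol and that allowance. Amount and timing of food thus cannot be told apart in the ration groups. The last injection was at 8 am, and tissue was taken 6 h after it. Celastrol-treated mice ate 0.8 g per day on average, so the PF ration was smaller than the amount it was matched to. Age and sex are not given in the labels. Celastrol is a triterpenoid from a medicinal vine under which obese mice eat less. Intake may therefore have differed between Veh and CS as well, though no intake of the Veh mice was available here. It was limited in both PF and PF+CS.

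The library totals were 6008564 to 12880459 counts, and 16998 to 17961 genes had a count. The ribosomal RNA precursor Rn45s made up 3.48 to 5.62% of the counts in Veh and 2.78 to 3.94% in PF. Its share was 2.44 to 2.89% in CS and 2.79 to 4.03% in PF+CS. All CS libraries lay below all Veh libraries in this share, and its part in the results was not tested. All 10 hypothalamic marker genes looked up were tested and none was at 0. Group names differ between the files. For 3 of the 5 comparison tables of the authors, the count columns that give the deposited means belong to other groups than those in the table's name, and all 5 match if PF and CS are exchanged. Group names below are those of the count columns. If the table names are right, PF minus Veh trades places with CS minus Veh, PF+CS minus CS with PF+CS minus PF, and the main effect of the ration with that of celastrol. Neither PF+CS minus Veh nor the interaction would be affected. The meningeal fibroblast markers were low in 5 libraries (Veh 3, PF 1, PF 2, CS 2 and PF+CS 4), where their mean log2 level was 1.83 to 2.30 against 3.65 to 4.40 in the others. Their part in the results was not tested beyond the fits without those libraries. In bulk tissue, fewer cells of a type and less RNA per cell cannot be told apart.

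Promoters of 4 members are shown because these genes are described most below. Kmt2d and Kmt2a had the highest values in the main effect of celastrol, and Kdm7a and Kdm5c had the smallest adjusted p-values for the ration. Each run holds 300 bases of the RefSeq promoter on build GRCm38.p6, 5′ to 3′ on the gene's strand, at 15:98871156-98871455 (minus strand) for Kmt2d, 9:44881240-44881539 (minus) for Kmt2a, 6:39206724-39207023 (minus) for Kdm7a and X:152232977-152233276 (plus) for Kdm5c. Capitals mark GC boxes, the hexamer GGGCGG or its reverse complement CCGCCC.
Kmt2d: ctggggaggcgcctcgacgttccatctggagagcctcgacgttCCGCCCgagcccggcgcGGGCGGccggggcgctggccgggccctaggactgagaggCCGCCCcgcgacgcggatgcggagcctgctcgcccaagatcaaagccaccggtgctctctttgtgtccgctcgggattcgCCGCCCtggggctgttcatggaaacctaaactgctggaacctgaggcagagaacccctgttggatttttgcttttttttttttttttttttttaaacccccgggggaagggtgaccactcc
Kmt2a: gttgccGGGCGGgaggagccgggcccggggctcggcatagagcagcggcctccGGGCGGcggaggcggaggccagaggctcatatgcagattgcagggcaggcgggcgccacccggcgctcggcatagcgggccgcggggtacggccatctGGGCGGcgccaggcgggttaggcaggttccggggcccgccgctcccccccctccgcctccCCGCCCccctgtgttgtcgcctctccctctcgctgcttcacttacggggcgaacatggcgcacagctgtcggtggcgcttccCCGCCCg
Kdm7a: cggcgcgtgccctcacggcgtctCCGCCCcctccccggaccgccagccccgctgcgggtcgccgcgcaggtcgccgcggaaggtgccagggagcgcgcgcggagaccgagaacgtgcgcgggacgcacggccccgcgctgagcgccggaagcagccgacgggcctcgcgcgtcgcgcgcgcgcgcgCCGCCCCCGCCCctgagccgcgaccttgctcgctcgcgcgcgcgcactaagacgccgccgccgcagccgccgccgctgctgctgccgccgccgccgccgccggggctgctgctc
Kdm5c: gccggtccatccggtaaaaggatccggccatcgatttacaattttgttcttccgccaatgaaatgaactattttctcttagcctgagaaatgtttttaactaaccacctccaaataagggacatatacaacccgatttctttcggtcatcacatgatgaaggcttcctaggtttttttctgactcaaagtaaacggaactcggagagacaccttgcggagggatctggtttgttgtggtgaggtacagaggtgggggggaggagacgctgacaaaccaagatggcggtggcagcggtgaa

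The Kmt2d run held 4 GC boxes and 27 CpG dinucleotides, the Kmt2a run 5 and 36, and the Kdm7a run 3 and 65. The Kdm5c run held 0 GC boxes, 13 CpG dinucleotides and 1 CCAAT box. Most of the Kdm5c window lies within the gene as annotated by GENCODE, from X:152233020. Most of each other window lies upstream of its annotated gene, so the runs are unlike in position. RefSeq gave 43 such promoters for 32 of the 42 members. A GC box stood in 69.8% of them, against 35.7% of all 32851 promoters of the same length, and the median number of CpG dinucleotides was 28 against 7. Motifs of 5 other kinds were searched on both strands. The heat shock element GAANNTTC was in 4.65% of the members' promoters and 7.86% of all, the TATA box TATAAA in 2.33% and 13.6%, and the CCAAT box CCAAT in 39.5% and 37.4%. The E-box CACGTG was in 9.30% and 7.15%, and the cAMP response element TGACGTCA in 2.33% and 1.79%. These matches describe letters in the windows and not binding.

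All 42 members passed the filter on low counts and were measured in every group. Levels between genes are compared here per transcript length, as FPKM in Veh (fragments per kilobase, scaled to library size). Setd3, which methylates a histidine of actin, had the highest level with 21.9, 22.0, 21.9 and 21.9 FPKM in the 4 Veh libraries. Ash1l, an H3K36 methyltransferase, followed at 12.5 ± 0.333 FPKM and Ehmt2, the H3K9 methyltransferase also called G9a, at 12.1 ± 0.815 FPKM (SD, n = 4). The lowest were Setd4 at 0.637 ± 0.128, Kdm4d, an H3K9 demethylase, at 0.476 ± 0.0649 and Suv39h2, an H3K9 methyltransferase, at 0.282 ± 0.0273 FPKM. Neighbours in the order mostly could not be separated: in 9 of 41 neighbouring pairs the Veh libraries did not overlap, and Setd3 over Ash1l and Kdm4d over Suv39h2 were among these. Of the 10 highest members per length, 8 were also among the 10 highest by CPM, the count scaled to library size.

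**Figure D1:**
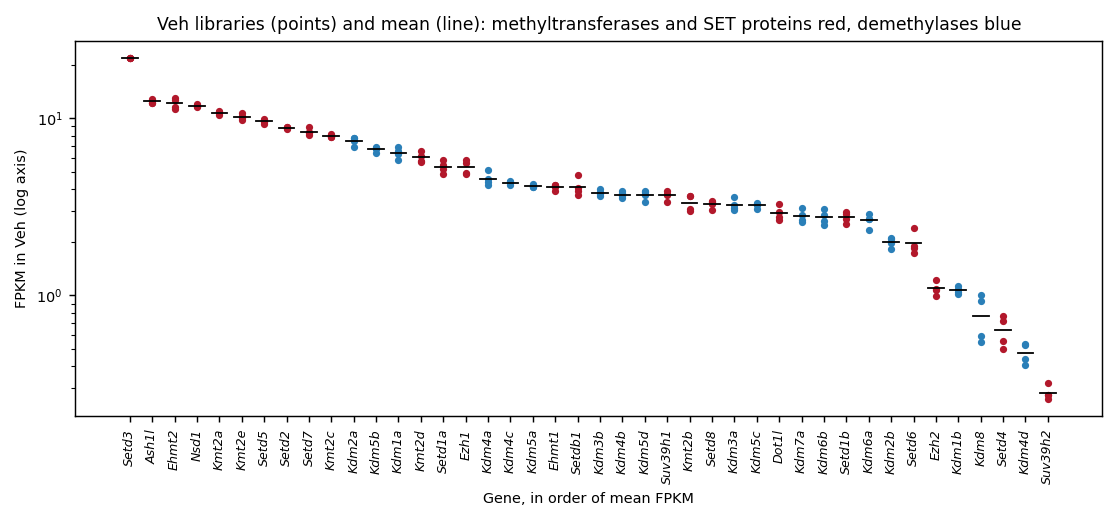
FPKM of the 42 members in the 4 Veh libraries (points, log axis) with the mean (line), ordered by mean. Methyltransferases and other SET-domain proteins are red and demethylases blue, and the means run from 21.9 FPKM (Setd3) to 0.282 FPKM (Suv39h2).

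Closely related enzymes differed in level. Kmt2a, which acts on H3K4 at promoters of developmental genes, was at 10.7 ± 0.194 FPKM and its relative Kmt2b at 3.35 ± 0.349 in Veh. Kmt2c and Kmt2d, which monomethylate H3K4 at enhancers, were at 7.94 ± 0.152 and 6.04 ± 0.392 FPKM, and Kmt2d was 14th of the 42 members. Ezh1, the catalytic subunit of Polycomb repressive complex 2 (PRC2) in resting cells, was at 5.29 ± 0.479 FPKM, and Ezh2, its counterpart of dividing cells, was at 1.10 ± 0.0961. The H3K9 pair Suv39h1 and Suv39h2 stood at 3.67 ± 0.221 and 0.282 ± 0.0273 FPKM. In each of these pairs the Veh libraries of the genes did not overlap.

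Kdm5c, an X-linked H3K4 demethylase, was at 3.23 ± 0.106 FPKM and its Y-linked homolog Kdm5d at 3.69 ± 0.231. By CPM in Veh the order was the reverse, at 115.5 ± 2.59 for Kdm5c and 73.6 ± 4.22 for Kdm5d. The longest transcript of Kdm5c is the shorter of the pair (6449 against 7974 bases). Which of the pair is higher thus depends on the measure. Kdm6a, an X-linked H3K27 demethylase, was at 2.66 ± 0.223 FPKM and the autosomal Kdm6b at 2.77 ± 0.252, a difference within 1 SD. Setd1a and Setd1b, catalytic subunits of the complexes for H3K4 trimethylation, were at 5.32 ± 0.416 and 2.77 ± 0.198 FPKM, and Ehmt1, the partner of Ehmt2, was at 4.11 ± 0.159 FPKM. Reads that fit both Kdm5c and Kdm5d may have been split or lost, since no source used here gives the counting rules.

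The first question put to the data was what the food ration does without celastrol. By edgeR's quasi-likelihood test 1 member was called in PF minus Veh, Kdm7a, higher by log2 0.34 ± 0.06 (SE, adjusted p = 0.00196). Of all tested genes, 3.63% were called, 2.36% higher and 1.28% lower, so 1 of 42 is near the background. By the same test 15 members had an unadjusted p under 0.05, against 2727 of 14775 tested genes. Kdm7a (6:39136623-39206789, GRCm38, protein-coding) removes methyl groups from H3K9 and H3K27. Its level was 79.8, 81.05, 95.6 and 80.2 CPM in Veh and 97.9, 110.3, 104.3 and 114 CPM in PF. Every PF library lay above every Veh library, and Veh 3 was the nearest Veh library to them. In the authors' deposited table computed from the Veh and PF columns, Kdm7a was higher by log2 0.298 ± 0.0626 (SE), with an adjusted p of 0.000374. That table is named for Veh and CS, and it rests on the same libraries. On the FPKM scale the call was lost, with adjusted p-values of 0.0557 and 0.0534 for pseudocounts of 1 and 0.1.

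Setd1a came next. Its level was 107.7, 97.9, 92.7 and 97.9 CPM in Veh and 86.8, 91.7, 87.8 and 84.1 CPM in PF. The groups did not overlap, but the difference of log2 −0.17 ± 0.05 had an adjusted p of 0.0554 by edgeR. Setd8, now named Kmt5a, which monomethylates lysine 20 of histone H4, differed by log2 0.21 ± 0.07 (adjusted p = 0.0694). Over the family, 30 members had a positive and 12 a negative value, with a median log2 change of 0.04 against −0.0003 for all tested genes. The 8 H3K4 methyltransferases ranged from log2 −0.17 to 0.22, with 6 positive.

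The same ration in celastrol-treated mice gave 0 called members in PF+CS minus CS by edgeR, where 2.65% of all tested genes were called, 1.79% higher and 0.866% lower. At an unadjusted p under 0.05 there were 12 members, against 2367 of 14775 tested genes, and DESeq2 called 1. Kdm5c had the smallest adjusted p (0.0689), with a difference of log2 0.15 ± 0.05. Its level was 115.7, 117.6, 119.8 and 114.9 CPM in CS and 132, 133, 128 and 127 CPM in PF+CS, without overlap. Kmt2d differed by log2 0.12 ± 0.04 (adjusted p = 0.0854), Ezh2 by 0.36 ± 0.12 (adjusted p = 0.0903) and Kdm7a by 0.18 ± 0.06 (adjusted p = 0.098). In the authors' deposited table computed from the CS and PF+CS columns, Setd7 (adjusted p = 0.002), Kmt2d (0.0289) and Kdm5c (0.0434) were past the threshold, all higher in PF+CS. That table is named for PF and PF+CS. The median over the members was 0.02 on the log2 scale, against 0.004 for all tested genes.

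The main effect of the ration, the mean of these differences with and without celastrol, uses all 16 libraries. Of the 42 members, 10 were called higher and 1 lower by edgeR, where 6.92% of all tested genes were called higher and 4.52% lower (11.4% in all). Demethylases of H3K4 and H3K9, H3K4 methyltransferases and Ezh2 were among the higher, and Setd1a was the lower one. The differences were small, from log2 0.07 (Kmt2a) to 0.32 (Ezh2) among those called higher. Of all calls in the ration main effect, 60.5% were higher, against 44.6% on the FPKM scale with a pseudocount of 1. The median over the family was log2 0.03 against 0.0007 for all tested genes, with 29 positive and 13 negative members. By edgeR 14 members had an unadjusted p under 0.05, against 3606 of 14775 tested genes.

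**Figure D2:**
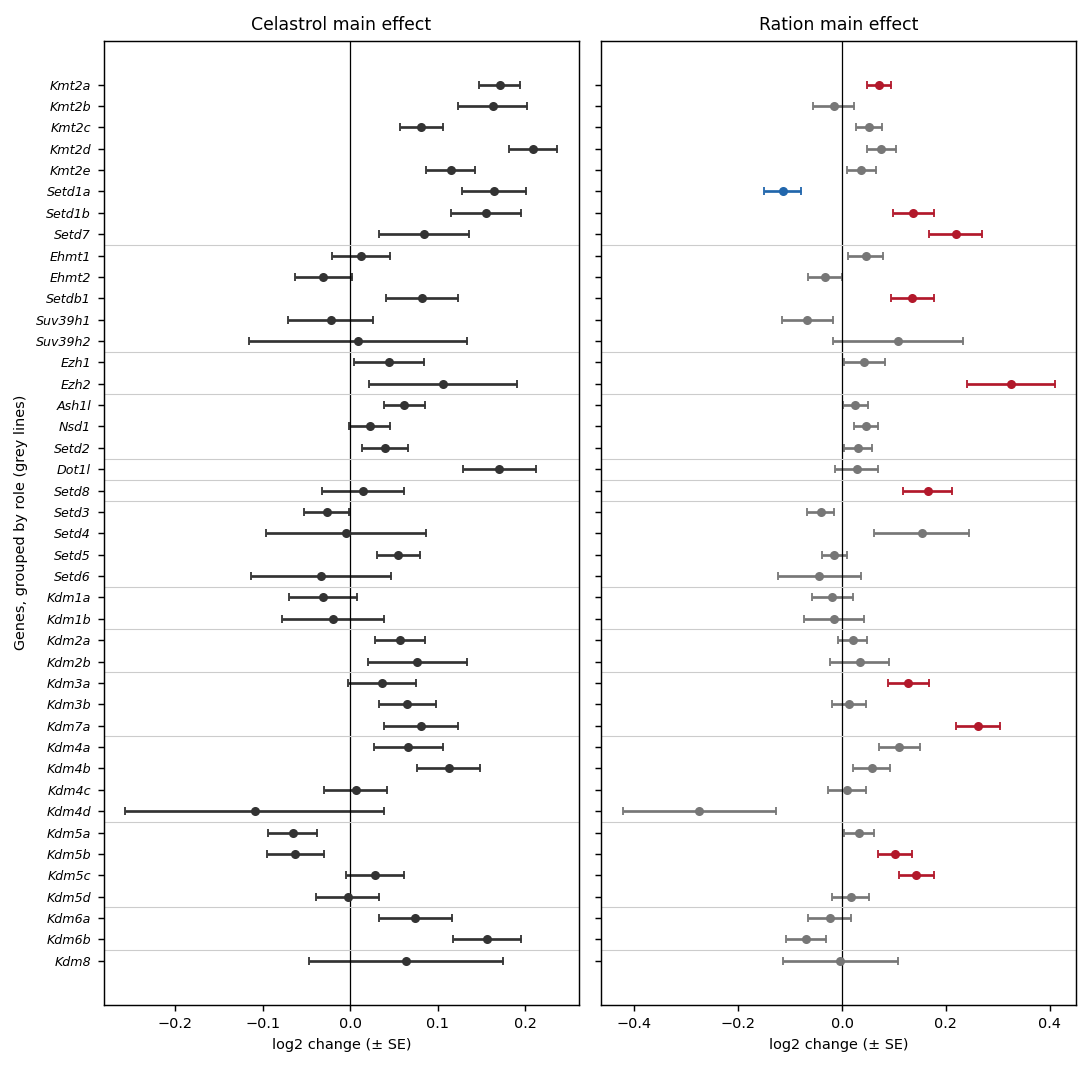
Log2 change ± SE of the 42 members, grouped by role (grey lines), for the main effect of celastrol (left, a description with no calls marked) and of the ration (right). On the right, red marks the 10 members called higher, blue Setd1a, the 1 called lower, and grey the others.

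Among the demethylases, Kdm7a had the smallest adjusted p of the family, higher by log2 0.26 ± 0.04 (adjusted p = 0.000182). Its celastrol-treated libraries were at 103, 85.3, 95.8 and 94.2 CPM in CS and 110.9, 109.2, 106.9 and 101.5 CPM in PF+CS. These groups overlapped through CS 1, whereas PF and Veh did not overlap. Kdm7a was called without any 1 of the 16 libraries and in all 9 other settings, with adjusted p-values of at most 0.0111 in the latter. Kdm5c (X:152233020-152274535, GRCm38, protein-coding) was higher by log2 0.14 ± 0.03 (adjusted p = 0.00451). Its level was 118, 113, 118 and 114 CPM in Veh and 134, 120.1, 115 and 137 CPM in PF, where PF 3 lay within the Veh range. Kdm5b, a further H3K4 demethylase, was higher by log2 0.10 ± 0.03 (adjusted p = 0.036), and Kdm3a, an H3K9 demethylase, by 0.13 ± 0.04 (adjusted p = 0.0293).

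The values of Kdm5b were 142, 134.7, 144.7 and 136.6 CPM in Veh, 156, 145, 145 and 153 CPM in PF, 130.6, 143, 131 and 130.2 CPM in CS, and 156, 135, 142 and 140.3 CPM in PF+CS. The PF libraries lay above all Veh libraries, while CS 2 reached into the PF+CS range. Kdm3a was at 60.1, 55.9, 57.8 and 57.1 CPM in Veh, 67.6, 61.5, 59.05 and 66.5 CPM in PF, 57.7, 62.0, 57.0 and 62.3 CPM in CS, and 64.98, 69.4, 62.8 and 61.4 CPM in PF+CS. The PF libraries overlapped Veh through PF 3 and PF+CS overlapped CS through PF+CS 4. The other H3K4 demethylases, Kdm5a and Kdm5d, were not called, at log2 0.03 ± 0.03 and 0.02 ± 0.04.

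Among the methyltransferases, Ezh2 had the largest difference, log2 0.32 ± 0.08 (adjusted p = 0.0112). It was at 10.9, 10.3, 12.4 and 12.8 CPM in Veh, 13.9, 14.7, 11.6 and 16.04 CPM in PF, 11.4, 14.3, 11.2 and 12.1 CPM in CS, and 19.6, 15.2, 14.2 and 13.9 CPM in PF+CS. Ezh2 had low counts, with 79 to 186 in a library, and PF 3 lay within the Veh range. Setd7, which methylates H3K4 and many non-histone proteins, was higher by log2 0.22 ± 0.05 (adjusted p = 0.0113). It was at 177, 171, 195 and 178 CPM in Veh, 209.6, 208, 180.1 and 237 CPM in PF, 185, 192, 198 and 188 CPM in CS, and 228, 232, 234 and 194 CPM in PF+CS. PF 3 and PF+CS 4 lay within the range of the freely fed libraries. Exons of Setd7 overlap those of 5031434O11Rik on the opposite strand, and reads of the pair cannot be told apart if strand was not used.

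Setd8 was higher by log2 0.16 ± 0.05 (adjusted p = 0.0205), with 25.7 to 28.6 CPM in Veh, 28.3 to 33.8 CPM in PF, 27.5 to 28.8 CPM in CS and 29.3 to 31.9 CPM in PF+CS. The PF+CS and CS libraries did not overlap. Without PF 4 the adjusted p of Setd8 was 0.0771. Setd1b was higher by log2 0.14 ± 0.04 (adjusted p = 0.0231), with 67.8 to 77.8 CPM in Veh, 75.8 to 87.3 CPM in PF, 78.0 to 84.3 CPM in CS and 80.9 to 96.6 CPM in PF+CS. Setdb1, which trimethylates H3K9, was higher by log2 0.13 ± 0.04 (adjusted p = 0.0315), with 60.7 to 77.0 CPM in Veh, 69.3 to 76.5 CPM in PF, 66.1 to 73.3 CPM in CS and 74.1 to 81.2 CPM in PF+CS. Its exons overlap those of Cers2 on the opposite strand.

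Kmt2a was higher by log2 0.07 ± 0.02 (adjusted p = 0.0446), and was called in 3 of the 16 fits without 1 library (those without Veh 1, Veh 3 or PF 1). Setd1a was lower, by log2 −0.11 ± 0.04 (adjusted p = 0.0364). The 4 PF libraries of Setd1a lay below all 12 others. With celastrol the groups overlapped, at 107, 108.5, 103 and 106 CPM in CS and 92.95, 105.7, 101.1 and 109.9 CPM in PF+CS. Setd1a lost its call without any 1 of 7 libraries (Veh 1, PF 4, CS 1, CS 2, CS 4, PF+CS 1 or PF+CS 3), with an adjusted p up to 0.0886. Its relative Setd1b thus had the opposite sign of difference under the ration, and the contrast between both genes was not tested.

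Kmt2d itself was not called for the ration, with log2 0.08 ± 0.03 and an adjusted p of 0.0705. Without Veh 1 its adjusted p was 0.0195 and without PF 1 it was 0.0478. Kdm4a, an H3K9 and H3K36 demethylase, also missed the threshold at log2 0.11 ± 0.04 (adjusted p = 0.0672). The 3 H3K36 methyltransferases among the members, Setd2, Nsd1 and Ash1l, lay between log2 0.03 and 0.05. The H3K27 demethylases Kdm6a and Kdm6b were at −0.02 ± 0.04 and −0.07 ± 0.04. The FAD-dependent Kdm1a and Kdm1b were at −0.02 ± 0.04 and −0.02 ± 0.06. None of these was called. The 4 calls that held without any 1 library were those of Kdm7a, Ezh2, Kdm5c and Setd7. Kdm3a lost its call without Veh 2, PF 1, PF 4, CS 1, CS 3, PF+CS 1 or PF+CS 2 (adjusted p up to 0.0915). Kdm5b lost it without Veh 2, Veh 4, PF 1, PF 4, CS 1, CS 3, CS 4, PF+CS 1 or PF+CS 3 (up to 0.119). Setd1b lost it without Veh 4, PF 2, CS 1, CS 3 or PF+CS 1 (up to 0.0743), and Setdb1 without Veh 2, Veh 3, Veh 4, PF 2, PF 3, CS 1, CS 3 or PF+CS 1 (up to 0.0868). On the FPKM scale only Kdm7a was called, at either pseudocount.

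**Figure D3:**
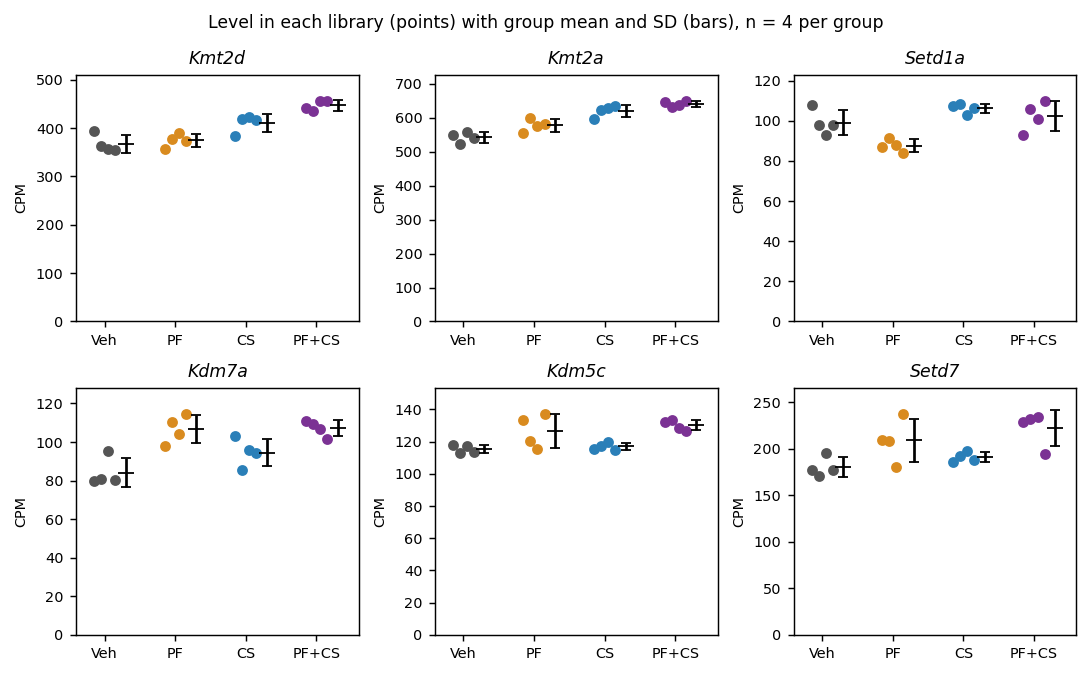
CPM of 6 members in each library (points, axis from 0), with the group mean and SD (bars, n = 4). The PF+CS libraries of Kmt2d lie above all others, the PF libraries of Setd1a lie below all others, and the PF libraries of Kdm7a lie above all Veh libraries.

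Some markers of other cells differed with the ration, and the change with the ration varied with transcript length. All 5 oligodendrocyte markers and 3 of 5 microglia markers were called lower in the main effect of the ration. The summed oligodendrocyte markers ranged from 2823 to 3402 CPM in Veh, 2626 to 2982 CPM in PF, 3219 to 3545 CPM in CS and 2605 to 3124 CPM in PF+CS. The summed microglia markers ranged from 138 to 145 CPM in Veh, 101 to 120.2 CPM in PF, 131 to 138 CPM in CS and 100.4 to 128 CPM in PF+CS. No marker of either list was at 0. Of 5 endothelial markers 1 was called higher and 2 lower, of 5 astrocyte markers 1 lower, of 10 hypothalamus markers 1 higher and 1 lower, and of 8 nuclear-retained RNAs 2 higher. Of 5 thalamus and 4 striatum markers 1 each was called higher, and of the neuron and meningeal markers 0. Of the 10 meningeal markers, though, 9 had negative values, with a median of log2 −0.30. Their sums varied widely within a group, from 70.9 to 284 CPM in Veh. The part of these cells and RNAs in the members' values was not tested. The members are long genes, with a median longest transcript of 6158 bases (1707 to 19823) against 3441 bases for all tested genes, and 24 of 42 were in the top bin when tested genes were cut into 5 bins of equal size by length. For the ration, the median log2 change of other genes went from −0.02 in the shortest bin to 0.02 in the longest, where 16.5% were called and 8 of the 24 members. When an offset for GC and transcript length was added, 7 of the 11 calls were left, and 4 were lost. With the offset, Setd1b was at log2 0.12 (adjusted p = 0.0505), Setdb1 at 0.12 (0.0625), Kdm5b at 0.07 (0.138) and Kmt2a at 0.04 (0.386).

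**Figure D4:**
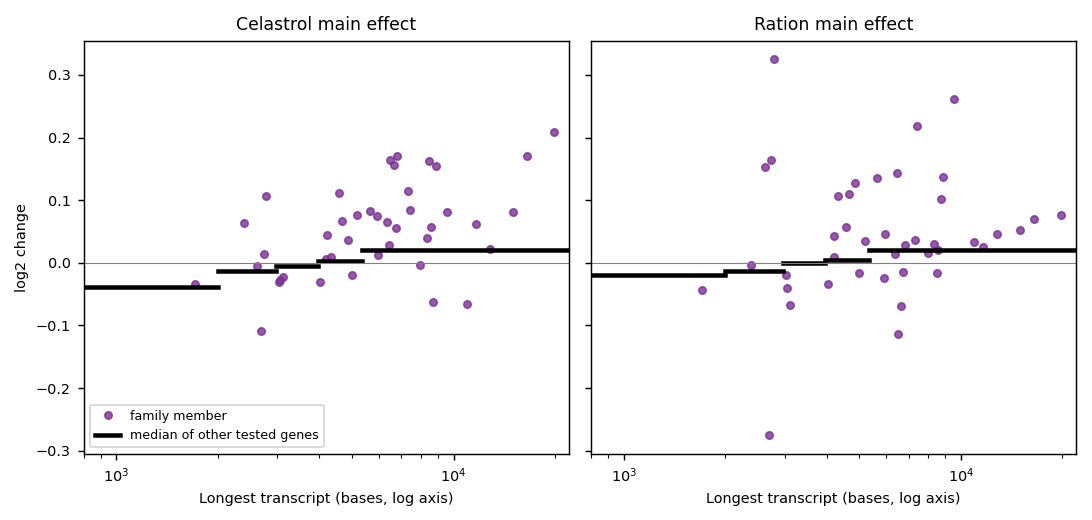
Log2 change of the 42 members (points) against the length of the longest transcript (bases, log axis), for the main effect of celastrol (left) and the ration (right). Bars give the median of the other tested genes in each of 5 bins of length, which goes from −0.04 to 0.02 on the left and from −0.02 to 0.02 on the right.

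The interaction asks whether the difference with celastrol under the ration is another than that with free food. By edgeR 0 members and 0 of all tested genes (0%) were called, and DESeq2 and voom called 0 members. At an unadjusted p under 0.05 there was 1 member, against 741 of 14775 tested genes. That member was Kmt2e, a SET-domain protein of the H3K4 family for which methyltransferase activity is in doubt, at log2 −0.12 ± 0.06 (adjusted p = 0.913). Kdm7a was at log2 −0.16 ± 0.09 (95% confidence interval −0.33 to 0.01). Kmt2d, from which the family was chosen, was at 0.09 ± 0.06, and its value is a description.

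The values with celastrol follow as a description. For Kmt2d (15:98831669-98871204, GRCm38, protein-coding), from which the family was chosen, the levels were 394, 363, 356 and 354 CPM in Veh, 357, 377, 389.6 and 374 CPM in PF, 383, 419, 423 and 417 CPM in CS, and 441, 434, 455 and 456 CPM in PF+CS. The PF+CS libraries were above all others, while CS overlapped Veh because CS 1 lay below Veh 1. Kmt2d was higher by log2 0.16 in CS minus Veh, 0.25 in PF+CS minus PF and 0.29 in PF+CS minus Veh. Its main effect of celastrol was log2 0.21 ± 0.03, the highest of the 42 members. Kmt2a (9:44803355-44881296, GRCm38, protein-coding) was next at 0.17 ± 0.02. Its levels were 550.2, 522, 557 and 539.5 CPM in Veh, 555, 600.5, 575 and 582 CPM in PF, 595, 622, 628.5 and 633 CPM in CS, and 645.5, 631, 638 and 649 CPM in PF+CS. For Kmt2a, CS lay above Veh and PF+CS above PF without overlap.

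All 8 H3K4 methyltransferases had positive values in CS minus Veh and in PF+CS minus PF, where 49.6% and 47.3% of all tested genes had. In the main effect of celastrol, which is the mean of both and so positive by construction, they ranged from log2 0.08 to 0.21. Kmt2b, Setd1a and Setd1b were each at 0.16 ± 0.04, Kmt2e at 0.11 ± 0.03, and Kmt2c and Setd7 at 0.08. Outside this class, Dot1l, the H3K79 methyltransferase, was at 0.17 ± 0.04, with 55.8 to 62.4 CPM in Veh, 55.7 to 68.2 CPM in PF, 61.2 to 70.0 CPM in CS and 66.1 to 68.2 CPM in PF+CS. Kdm6b, an H3K27 demethylase induced in many cell types by stimulation, was at 0.16 ± 0.04. The lowest values were those of Kdm4d at log2 −0.11 ± 0.15, Kdm5a at −0.07 ± 0.03, Kdm5b at −0.06 ± 0.03 and Setd6, a methyltransferase of non-histone proteins, at −0.03 ± 0.08. The 4 H3K4 demethylases ranged from −0.07 to 0.03.

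In the main effect of celastrol 8 of 42 members passed the threshold used for the ration, all on the higher side, where 2.59% of all tested genes did (1.14% higher, 1.45% lower). In CS minus Veh 3 members passed, all higher, beside 0.893% of all tested genes (0.305% higher, 0.589% lower). In PF+CS minus PF 1 member passed, Kmt2d, beside 0.0948% (0.088% higher, 0.00677% lower). In PF+CS minus Veh 13 members passed, all higher, beside 10.3% (5.85% higher, 4.47% lower). Since the family was chosen on this outcome, nothing is read from these counts. The comparisons also share libraries. The median over the family was log2 0.06 in the main effect of celastrol, against −0.002 for all tested genes. With the offset for GC content and length it was 0.03, and without the 5 libraries low in meningeal markers 4 members passed in place of 8. Of all calls in the celastrol main effect, 44.1% were higher, against 13.3% on the FPKM scale with a pseudocount of 1.

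**Figure D5:**
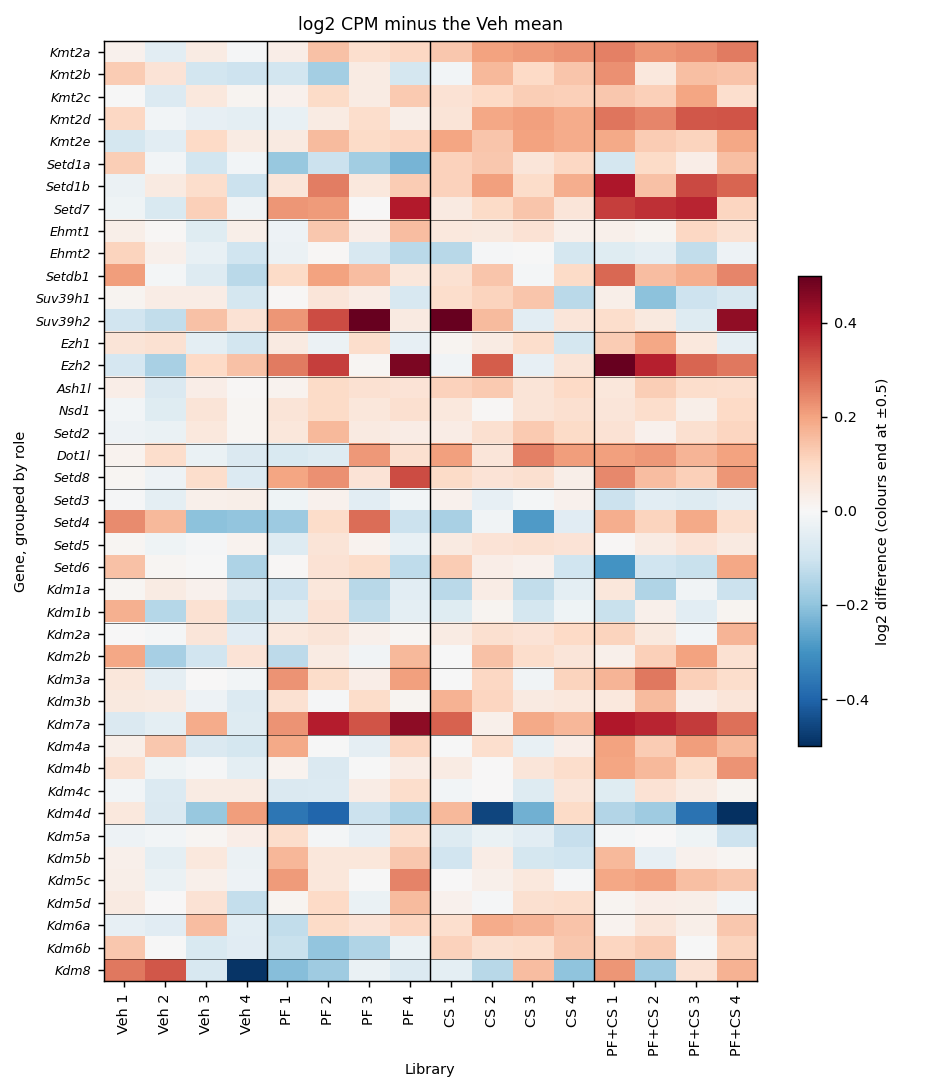
Log2 CPM minus the Veh mean for the 42 members (rows, grouped by role) in the 16 libraries (columns), with colours ending at ±0.5. The Kmt2d row is highest in the 4 PF+CS libraries, and the Kdm7a row is above the Veh mean in all PF, CS and PF+CS libraries.

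Some nuclear-retained RNAs and markers of endothelium and hypothalamus also differed with celastrol, and the change varied with transcript length. The median log2 change of other genes went from −0.04 in the shortest bin of length to 0.02 in the longest, and the 24 members of the longest bin had a median of 0.08. Of 8 nuclear-retained RNAs, a list added with earlier results of these libraries known, 4 were called higher in the main effect of celastrol. Their summed level was 28270 to 30230 CPM in Veh, 28540 to 33070 CPM in PF, 33090 to 34490 CPM in CS and 31700 to 35080 CPM in PF+CS. Of 5 endothelial markers 2 were called higher, with sums of 88.7 to 104 CPM in Veh, 86.8 to 109.5 CPM in PF, 108.1 to 139 CPM in CS and 125 to 152 CPM in PF+CS. Of 10 hypothalamus markers 3 were called lower, with sums of 712 to 844 CPM in Veh, 621 to 817 CPM in PF, 710 to 795 CPM in CS and 683.5 to 778 CPM in PF+CS. Of the other marker lists 0 were called. All 10 meningeal markers nonetheless had positive values, from log2 0.14 to 0.57 with a median of 0.37. No marker of these lists was at 0, and their part in the members' values was not tested.

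Proteins that work with these enzymes, and other histone-modifying enzymes, were called for the ration in 4 cases, where 11.4% of all tested genes were called (6.92% higher, 4.52% lower). Of 14 partners of the COMPASS complexes, which carry the Kmt2 and Setd1 enzymes, 1 was called lower in the main effect of the ration, Hcfc1 at log2 −0.08 ± 0.03 (adjusted p = 0.0381). Of 9 tested partners of PRC2, 0 were called. Of 15 partners of the CoREST complex and of H3K9 enzymes, 1 was called higher, Phf21a, a reader of unmethylated H3K4 in the Kdm1a complex, at log2 0.11 ± 0.03 (adjusted p = 0.031). Of 10 tested acetyltransferases, Ep300 and Crebbp, the p300 and CBP coactivators, were called higher, both at log2 0.11 ± 0.03 (adjusted p = 0.00973 and 0.0155). Of 8 tested arginine methyltransferases 0 were called. At an unadjusted p under 0.05 there were 7 COMPASS partners, 4 PRC2 partners, 4 CoREST and H3K9 partners, 4 acetyltransferases and 1 arginine methyltransferase, against 3606 of 14775 tested genes. In the main effect of celastrol, where 2.59% of all tested genes were called, 1 gene of these lists was, the PRC2 and chromatin assembly subunit Rbbp4, at log2 −0.12 ± 0.03 (adjusted p = 0.0226).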

How the data were processed

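RNA of the hypothalamus was sequenced in 16 libraries, per the labels' protocols from a column-extracted RNA and a SMARTer mRNA kit. The deposited files hold the authors' gene counts in whole numbers, a table of FPKM values, and comparison tables with a mean of normalised counts (baseMean, another unit), a log2 fold change with its SE, a test score and a p-value. The FPKM table is labelled as counts but holds fractions. The genome build was GRCm38, per the submitters' processing notes, and no source used here gives the aligner, the counter or the strand setting. No column came from another series.

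The quasi-likelihood test of edgeR 4.0.16, in its robust form and under R 4.3.3, was fitted to the counts of all libraries with 1 mean per group and TMM scaling. The filter on low counts (filterByExpr, minimum count 10) kept 14775 genes. Genes were called at a Benjamini-Hochberg adjusted p of at most 0.05 over all tested genes in a contrast. CPM and FPKM levels are means ± SD of 4 libraries. The common biological coefficient of variation was 0.055. The labels do not say whether libraries share cages or days, so p-values measure only the spread between these libraries. Of the names, 27 had been turned into dates by a spreadsheet and were not named. Gene positions and lengths came from GENCODE M21 (GRCm38), with a length for 42 of 42 members and 99.1% of tested genes.

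The members, lists and rules were chosen with earlier results of these data known. Named were Kmt2d, members called for the ration, the 4 highest and 4 lowest for celastrol, the 3 highest and lowest by FPKM, and related pairs. Alternatives were RLE scaling, no filter, DESeq2 1.42.0, voom and log2(FPKM + 1 or 0.1) in limma 3.58.1, an offset for GC content and length, a replicate block, the 2 groups alone, and leaving out libraries.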

Additional observations from a re-analysis of the deposited data

Results flagged for a closer look

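Within groups of 4 libraries, the highest or lowest library stood apart from the rest in 7 of 168 sets of member and group by a gap beyond Dixon's critical value. Chance flags about 1 set in 20. Kmt2d was low in CS 1, at 383 CPM, and Setd7 was low in PF+CS 4, at 194 CPM. Kdm7a and Kdm6a were high in Veh 3, at 95.6 and 58.4 CPM, and Veh 3 is 1 of the 5 libraries low in meningeal markers. Setd2 was high in PF 2 at 252 CPM, Kdm5b was high in CS 2 at 143.0 CPM, and Kdm6b was low in PF+CS 3 at 58.6 CPM. Without Veh 3, Kdm7a was higher by log2 0.29 in the main effect of the ration, and its call held.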

How the results depend on the processing

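For PF minus Veh, the members called, in place of 1, were 2 without a filter (1 higher, 1 lower), 2 by DESeq2, 0 and 0 on FPKM with pseudocounts of 1 and 0.1, and 2 without the 5 libraries low in meningeal markers. For PF+CS minus CS, in place of 0, they were 1 by DESeq2, 2 without the 5 libraries and 4 in a fit of the 2 groups alone. For the ration main effect, in place of 11, they were 1 and 1 on FPKM and 7 with the GC and length offset. By edgeR without the 5 libraries, Setdb1 (adjusted p = 0.132), Kmt2a (0.0609) and Setd8 (0.0529) lost their ration calls. By edgeR, Kmt2a also lost its call without a filter (0.0919) and with the replicate block (0.061). By DESeq2, Setd8 lost its call (0.0568). The other ration calls held in these settings. For CS minus Veh, in place of 3, they were 5 by DESeq2 and 0 and 0 on FPKM. For PF+CS minus PF, in place of 1, they were 2 without a filter, 3 by DESeq2, and 0 on FPKM, with the offset or without the 5 libraries. For the celastrol main effect, in place of 8, they were 2 and 2 on FPKM and 4 without the 5 libraries, and for PF+CS minus Veh, in place of 13, they were 4 and 5 on FPKM and 8 with the offset. In the 5 lists of partner and related genes, 4 calls for the ration became 0 and 0 on FPKM, 2 with the offset and 10 without the 5 libraries, and 1 for celastrol became 3 by DESeq2, 2 with the offset and 0 without the 5 libraries. The causes were not tested. The interaction had 0 in every setting run. Of calls over all genes, the share that was higher fell from 60.5% to 44.6% on FPKM for the ration and from 44.1% to 13.3% for celastrol, where it was 62.5% without the 5 libraries.

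Leaving out 1 library in turn gave 1 to 4 for PF minus Veh (most without PF 3, 3 without Veh 3 or PF+CS 4, 2 without PF+CS 1) and 0 to 4 for PF+CS minus CS (most without PF+CS 4, 2 without PF 3 or PF 4). It gave 5 to 11 for the ration (5 without CS 1 or PF+CS 1, 6 without PF 4 or CS 3, 7 without Veh 4), 1 to 3 for CS minus Veh (1 without Veh 2, CS 3 or CS 4), 1 to 2 for PF+CS minus PF, 3 to 9 for celastrol (3 without CS 4, 5 without PF 2) and 7 to 14 for PF+CS minus Veh (7 without Veh 2, 8 without PF+CS 1). The partner lists gave 2 to 7 for the ration and 0 to 3 for celastrol. No single-gene value changed its sign where it had been called. Libraries with the same replicate number were mostly not alike: of 24 same-numbered pairs, 5 correlated above 0.1, with r from −0.415 to 0.326. Such correlations cannot tell whether same-numbered libraries shared a cage or day. With the replicate block 10 members were called for the ration, 1 in PF minus Veh and 8 for celastrol. Depth limits members with few counts, such as Suv39h2 and Kdm4d.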
